A study of Mus musculus with 4 samples.

Results

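ABC transporter genes encode membrane proteins that use ATP to move lipids, bile salts, drugs, peptides and metal complexes across membranes. The members described here are all mouse genes whose GENCODE vM21 symbol is Abc, a subfamily letter from a to g and a number, with or without a closing letter. This rule, which used no measured value, found 50 genes, all protein-coding, among the 55487 genes of the deposited tables: 16 in subfamily ABCA, 10 in ABCB, 10 in ABCC, 4 in ABCD, 1 in ABCE, 3 in ABCF and 6 in ABCG. Poly(A) RNA was sequenced from untreated stem cells that had been sorted out of crypt preparations. All mice were 6 to 12 weeks old and of genotype Lgr5-EGFP-IRES-creERT2. In these mice the Lgr5 locus, active in crypt base stem cells, carries a green fluorescent reporter and an inducible recombinase, in both groups alike, and the allele is known to be expressed in only some crypts. The small-intestinal group (SISC, 2 libraries) was sorted as Lgr5-EGFP-positive and CD24-negative, and the large-intestinal group (LISC, 2 libraries; cecum to rectum) as Lgr5-EGFP-positive, without a CD24 gate in the series text. No source used here says whether a library came from 1 animal or a pool, or whether replicates are separate animals. All p-values therefore rest on the spread among these libraries alone, which may be technical.

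Members of subfamilies A and G mostly move sterols and phospholipids. Those of B and C include the exporters of drugs and of glutathione, glucuronide and sulfate conjugates, and B also holds transporters of the mitochondrial membrane. Subfamily D brings fatty acyl groups into peroxisomes, while E and F have no membrane domain and act at the ribosome. In the gut, apical exporters return drugs, plant sterols and conjugates to the lumen, and basolateral ones pass bile salts and conjugates towards the blood.

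Totals of expected counts ran from 12795434 to 27227715 per library, and rRNA genes took 31.8% and 36.6% of counts in the replicate 1 libraries of SISC and LISC but 0.246% and 0.304% in the replicate 2 libraries. Replicate number and intestine both separated the libraries, so the log2 ratio of each called member is also given within each replicate number, where it compares single libraries and has no test. Lgr5 was present at 113.5 and 173 CPM in SISC against 147 and 89.7 CPM in LISC, and Cd24a at 341 and 407 CPM in SISC against 328 and 503 CPM in LISC, so the gene of the gated surface protein was read in the CD24-negative group too. CPM here are counts relative to library size, with TMM factors between libraries. TPM, which are also scaled by transcript length, are used to compare genes with each other.

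Of the 50 members, 31 passed the filter on low counts and were tested: 6 of 16 in ABCA, 6 of 10 in ABCB, 8 of 10 in ABCC, 3 of 4 in ABCD, the ABCE gene, all 3 of ABCF and 4 of 6 in ABCG. The other 19 had at most 9 counts in any library, and 10 of them had 0 counts in all 4 libraries, which allows up to 3 counts, or 0.0937 to 0.278 CPM (counting error only). The 10 were Abca4, Abca6, Abca8a, Abca13, Abca15, Abca16, Abca17, Abcb5, Abcb11 and Abcd2. Abca4 is the retinoid transporter of photoreceptors, and Abcb11 is the bile salt export pump of hepatocytes. The phospholipid exporter gene Abcb4, also known from the hepatocyte, had 1 and 5 counts in SISC and 0 and 9 in LISC. Abcc9, a regulatory subunit of potassium channels in muscle and vessel wall, had 0 and 1 counts in SISC and 0 in LISC, and Kcnj8, the channel gene it partners, had 0 counts in every library.

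In SISC the 4 members with the highest mean TPM were Abcf1 (54.6), Abce1 (27.7), Abcb8 (26.9) and Abcf2 (20.6). In LISC they were Abcb1a (60.6), Abcf1 (52.2), Abcd3 (39.1) and Abcc3 (38.4). Abcb1a held rank 18 and 14 of the family by TPM in the SISC libraries and rank 1 in both LISC libraries. The TPM of Abcb1a in the LISC libraries was 37.9 and 83.3, against 33.0 and 71.5 for Abcf1 in the same libraries. Abcb1a thus lay above Abcf1 in each, by a gap smaller than the spread between replicates. That spread was shared by the family, whose summed TPM was 248 and 488 in LISC replicates 1 and 2. Abcb1a took 15.2% and 17.1% of these sums, and Abcf1 13.3% and 14.6%. TPM share a fixed total with rRNA genes, which took 36.6% and 0.304% of counts in these libraries. Mean TPM thus average replicates on unlike scales, and the part of rRNA in the TPM spread was not tested. The CPM sums of the family, given below, lay closer together. Abcf1 was the highest member in both SISC libraries. A mean TPM of at least 10 was reached by 10 members in SISC and 10 in LISC, 11 in all. In sum the family took 1005.5 and 877 CPM in SISC against 1316 and 1242 CPM in LISC. Without Abcb1a these sums were 980 and 852 CPM in SISC against 1078 and 960.0 CPM in LISC, so the groups then overlapped.

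**Figure D1:**
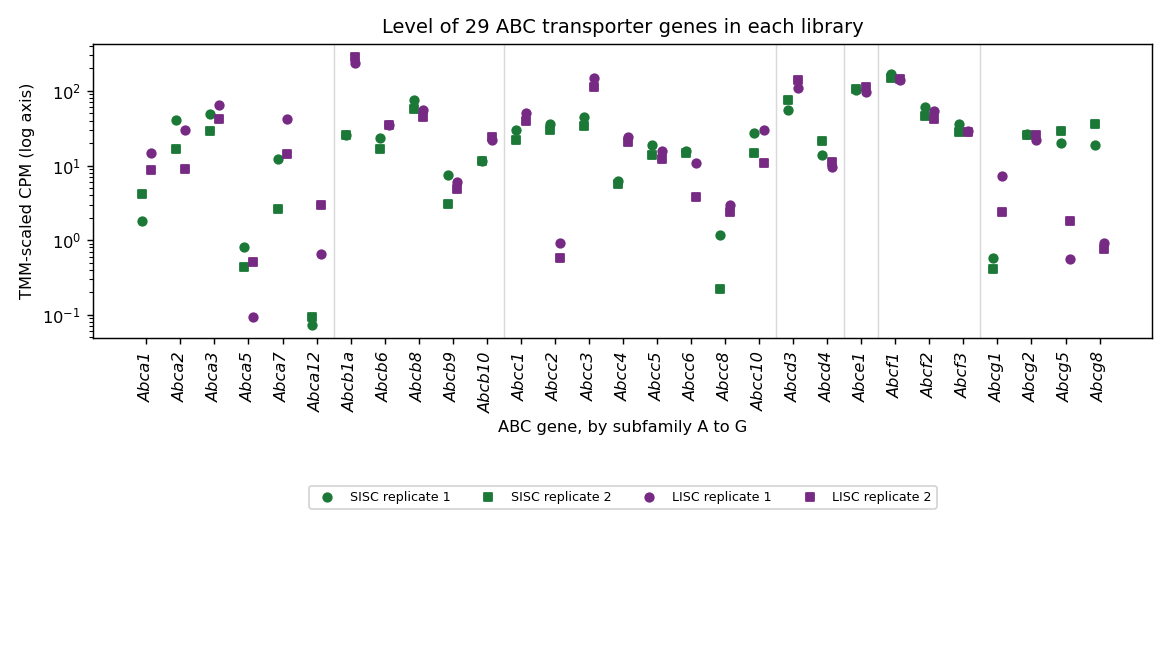
TMM-scaled CPM (log axis) of 29 tested ABC genes in each of the 4 libraries, ordered by subfamily, with circles for replicate 1 and squares for replicate 2. Abcb1a sits near 25 CPM in both SISC libraries and at 238 and 282 CPM in LISC, while Abcc2, Abcg5 and Abcg8 lie at 19.1 to 36.5 CPM in SISC against 0.556 to 1.82 CPM in LISC.

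Setting LISC against SISC asked which transporter genes separate the sorted cells of both intestines. In the series text only the SISC sort had a CD24-negative gate, so gate and intestine cannot be told apart. Abcb1a, which encodes a drug efflux pump (P-glycoprotein), and Abcc4, an exporter of cyclic nucleotides and conjugates, were higher in LISC. Abcc2, the apical exporter of conjugates, and Abcg5 and Abcg8, which together form the sterol exporter of the brush border, were higher in SISC. These 5 of 31 tested members (16.1%) passed edgeR's quasi-likelihood test (adjusted p under 0.05), beside 2.2% of all 14165 genes tested. Split by direction, 2 members were higher in LISC, beside 1.45% of all genes, and 3 in SISC, beside 0.741%. With DESeq2, 9 members passed (7.41% of all genes), of which 6 were higher in LISC (4.94%) and 3 in SISC (2.47%). With a block on replicate number, which the labels do not tie to an animal or batch, 13 passed (10.9% of all genes), 10 higher in LISC (7.17%) and 3 in SISC (3.7%). At an unadjusted edgeR p under 0.05 there were 13 (13.4% of all genes), again 10 in LISC (8.73%) and 3 in SISC (4.67%). The median log2 difference over the 31 members was −0.0048, beside −0.021 over all genes tested, while the median absolute difference was 0.80 for the members and 0.32 for all genes. CPM of the 2 groups did not overlap for 20 of the 31 members, beside 40.3% of all genes tested: 12 lay above in LISC (21.9% of all genes) and 8 below (18.4%). Of the 31 members, 25 had the same sign of difference within replicate 1 and within replicate 2, beside 9765 of all 14165 genes tested. In RNA from sorted pools, fewer cells that express a gene and less RNA of it per cell cannot be told apart.

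**Figure D2:**
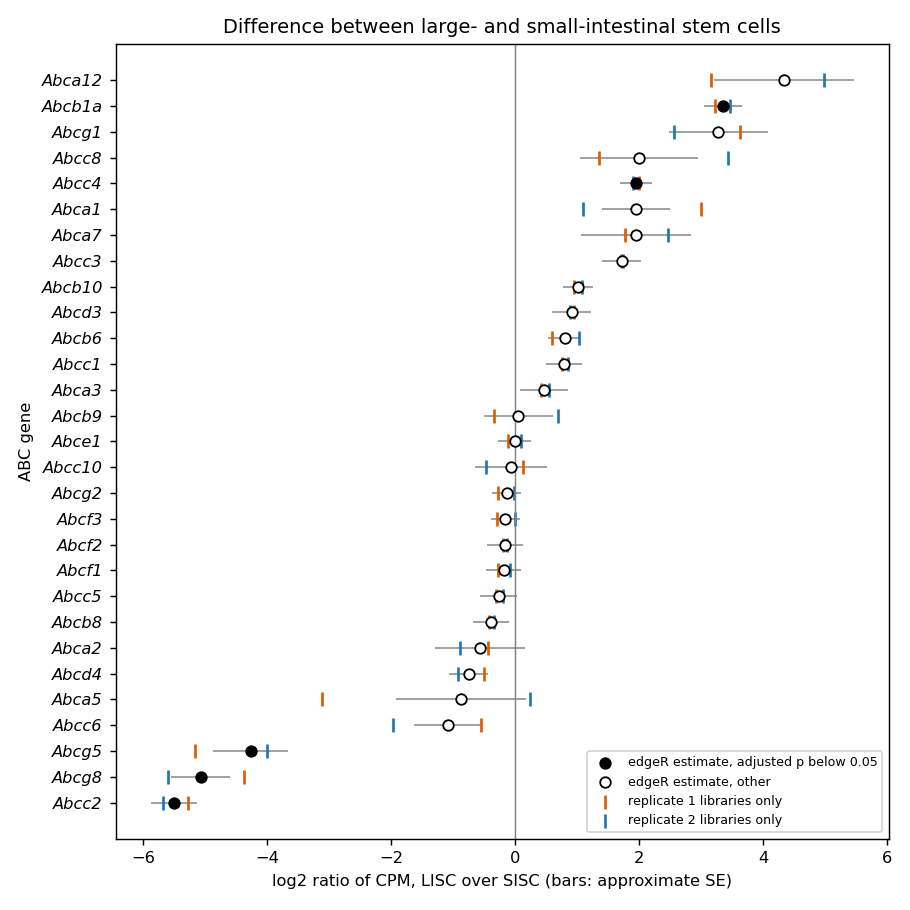
Log2 ratio of CPM, LISC over SISC, for 29 tested ABC genes, as the edgeR estimate with its approximate SE (bars), filled where the adjusted p is below 0.05, and as the ratio within replicate 1 (orange ticks) and replicate 2 (blue ticks) alone. Abcc2, Abcg8 and Abcg5 lie below −4 and Abca12, Abcb1a and Abcg1 above 3, with ticks of both replicate numbers on the same side of 0. Of these, Abca12 and Abcg1 are not filled.

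Among sterol transporters, Abcg5 and Abcg8 were higher in SISC. Abcg5 (ENSMUSG00000040505; chromosome 17, 84658234 to 84683011, minus strand, GRCm38) stood at 19.9 and 29.2 CPM in SISC against 0.556 and 1.82 CPM in LISC. Both LISC libraries, with 6 and 53 counts, lay far below both SISC libraries, with 273 and 934 counts. SISC exceeded LISC by 19.2-fold (log2 −4.26 ± 0.60, SE; edgeR adjusted p = 0.0461), with log2 ratios of −5.16 in replicate 1 and −4.00 in replicate 2. Abcg8 (ENSMUSG00000024254; chromosome 17, 84676302 to 84700333, plus strand) stood at 19.1 and 36.5 CPM in SISC against 0.927 and 0.756 CPM in LISC. SISC exceeded LISC by 33.5-fold (log2 −5.07 ± 0.48, edgeR adjusted p = 0.0218), with log2 ratios of −4.37 and −5.59 in the single replicates. The proteins work only as a pair that pumps cholesterol and plant sterols out of the cell, and per transcript length the genes stood at 7.31 and 16.95 TPM (Abcg5) and 4.43 and 13.0 TPM (Abcg8) in SISC. The call of Abcg5 was lost without SISC replicate 2 (log2 −4.01, edgeR adjusted p = 0.0569), and that of Abcg8 was kept without each library in turn. Such a fit leaves 1 library in a group, which is then assumed to vary like the other group.

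Abcg5 and Abcg8 lie head to head. The outermost annotated start of Abcg5 and the nearest Abcg8 start are separated by 109 bases, shown here because members that differ together share them as upstream sequence, beside 134 bases directly upstream of Abcc2, the member with the largest absolute log2 difference. Another annotated start of Abcg8 (84676302) lies inside Abcg5. Both sequences were read from RefSeq promoter windows (GRCm38.p6), plus strand, and are cut at the GENCODE starts. Capitals mark the GATA factor motif, searched on either strand as AGATAA, with A or T allowed as its first letter and A or G as its last (on the minus strand it shows as TTATCT).
Abcg5-Abcg8, chr17:84683012-84683120: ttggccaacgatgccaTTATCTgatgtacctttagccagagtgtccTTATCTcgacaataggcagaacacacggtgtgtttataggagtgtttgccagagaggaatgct
Abcc2, chr19:43782058-43782191: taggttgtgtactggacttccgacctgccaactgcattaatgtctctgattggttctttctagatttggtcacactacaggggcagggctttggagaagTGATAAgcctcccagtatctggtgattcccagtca
The stretch between Abcg5 and Abcg8 holds 2 matches. Of 32851 RefSeq windows of 109 bases that end at a start, 11.5% hold at least 1 match and 1.23% at least 2. The Abcc2 stretch holds 1 match, as 14.3% of windows of 134 bases do. The letters AGGTCA (a nuclear receptor element), GTTAAT (HNF1) and TTTATG (CDX) are in neither stretch on either strand. Motifs were chosen after the sequences were seen, and a match is a description of letters, not of binding. Of the GATA factor genes only Gata4 was read here, so levels of the others are not given. Gata4 stood at 132 and 88.8 CPM in SISC against 0.0927 and 0.103 CPM in LISC (edgeR adjusted p = 0.0155). The part of Gata4 or of any other GATA factor in the differences of Abcg5, Abcg8 and Abcc2 was not tested. The annotated exons of Abcg5 and Abcg8 share 82 bases on opposite strands, and since no source used here gives the strand setting of the counting, reads within them cannot be told apart.

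The cholesterol efflux genes Abca1 and Abcg1 were higher in value in LISC and were called by DESeq2 but not by edgeR. Abca1, which loads cholesterol and phospholipid onto apolipoprotein A1, stood at 1.82 and 4.12 CPM in SISC against 14.5 and 8.83 CPM in LISC. Its log2 difference of 1.95 ± 0.55 had an adjusted p of 0.196 with edgeR and 0.0323 with DESeq2. Abcg1, which moves cholesterol to high-density lipoprotein, stood at 0.582 and 0.406 CPM in SISC against 7.23 and 2.41 CPM in LISC. The log2 difference of Abcg1 was 3.28 ± 0.79 (edgeR adjusted p = 0.144, DESeq2 adjusted p = 0.00412). The groups did not overlap for either gene, though both stayed low, with LISC libraries at 0.90 and 1.12 TPM for Abca1 and 1.08 and 0.94 TPM for Abcg1. Abca7, a phospholipid transporter, stood at 12.1 and 2.59 CPM in SISC against 41.5 and 14.4 CPM in LISC (log2 1.95 ± 0.89, edgeR adjusted p = 0.477). Its log2 ratio of replicate 2 over replicate 1 was −2.22 in SISC and −1.53 in LISC, and LISC over SISC it was 1.78 and 2.47 in the single replicates. With the replicate block it was called (edgeR adjusted p = 0.00658). Abca12, the glucosylceramide transporter of skin lipid granules, had 1 and 3 counts in SISC and 7 and 86 in LISC, with 26.7 as the ratio of pooled counts (exact 95% interval 10.1 to 99.9, counting error only; edgeR adjusted p = 0.165, DESeq2 adjusted p = 0.0281). Most of its LISC counts came from replicate 2. Abca3, which packs phospholipid into lamellar bodies in lung and was the highest ABCA member per transcript length, stood at 48.4 and 28.6 CPM in SISC against 64.5 and 42.1 CPM in LISC, overlapping ranges (edgeR adjusted p = 0.819). A total of 914 exon bases of Abca3 overlap the antisense transcript gene D330041H03Rik, which had 29 to 69 counts per library.

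Among 15 genes of sterol uptake and esterification listed beside these transporters, 12 were tested, and 3 were called, each higher in SISC (25.0% of them called, beside 2.2% of all genes). Npc1l1, the apical cholesterol importer, stood at 30.1 and 14.0 CPM in SISC against 0.371 and 0.653 CPM in LISC, 40.1-fold higher in SISC (edgeR adjusted p = 0.0293). Soat2, which esterifies absorbed cholesterol, stood at 15.9 and 13.3 CPM in SISC against 0.649 and 1.31 CPM in LISC (14.3-fold, edgeR adjusted p = 0.0360). Mttp, the lipid transfer protein of chylomicron assembly, stood at 81.9 and 75.5 CPM in SISC against 2.04 and 3.82 CPM in LISC (26.2-fold, edgeR adjusted p = 0.0202). All 3 calls were kept without each library in turn. With DESeq2, 5 genes of the list were called higher in SISC and 1 in LISC. Apoa1 had the largest absolute difference of the list, at 10.6 and 20.6 CPM in SISC against 0 and 0.378 CPM in LISC. It passed with DESeq2 (adjusted p = 6.11e-11) but not with edgeR (log2 −5.99 ± 0.99, adjusted p = 0.0635). Scarb1, a lipoprotein receptor, had the opposite sign, at 7.79 and 7.09 CPM in SISC against 35.0 and 24.1 CPM in LISC. Scarb1 passed with DESeq2 (adjusted p = 0.000216) but not with edgeR (log2 1.99 ± 0.30, adjusted p = 0.0540). The cholesterol importer Npc1l1 and the exporter genes Abcg5 and Abcg8 were thus all higher in SISC. The list's median log2 difference was −0.76, beside −0.021 over all genes. Mttp, Apoa1 and Apob of this list are also among the small-intestinal enterocyte markers described below, so these lists are not independent.

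**Figure D3:**
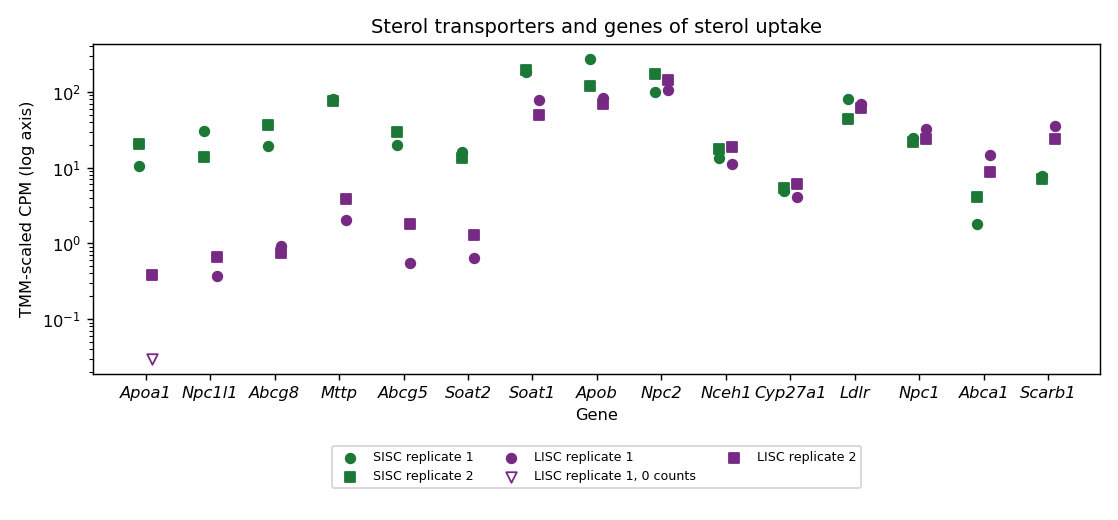
TMM-scaled CPM (log axis) of Abcg5, Abcg8, Abca1 and the 12 tested genes of sterol uptake and esterification in each library, ordered by log2 difference, with an open triangle where a library had 0 counts. Apoa1, Npc1l1, Abcg8, Mttp, Abcg5 and Soat2 lie higher in both SISC libraries, and Abca1 and Scarb1 lie higher in both LISC libraries.

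Among exporters of drugs and conjugates, Abcb1a and Abcc4 were higher in LISC and Abcc2 was higher in SISC. Abcb1a (ENSMUSG00000040584; chromosome 5, 8660077 to 8748575, plus strand) stood at 25.4 and 25.5 CPM in SISC against 238 and 282 CPM in LISC. The SISC libraries were nearly equal, and both LISC libraries lay far above them. LISC exceeded SISC by 10.2-fold (log2 3.35 ± 0.31, edgeR adjusted p = 0.0218), with log2 ratios of 3.23 and 3.47 in the single replicates. The call was lost without SISC replicate 2 (log2 3.33, edgeR adjusted p = 0.0536). Abcb1b, the close copy next to it on chromosome 5 that encodes the other mouse P-glycoprotein, had 0 and 1 counts in SISC and 2 and 0 in LISC. The deposited posterior SD of the Abcb1a count, which measures how far reads shared with copies blur it, was at most 0.62 reads in any library. Abcg2, the other broad apical drug exporter and a marker of dye-excluding stem cells in several tissues, stood at 26.2 and 25.9 CPM in SISC against 21.8 and 25.7 CPM in LISC. Its log2 difference was −0.13 ± 0.23 (edgeR adjusted p = 0.972), and its LISC levels lay just below both SISC levels. Per transcript length, Abcb1a at 4.16 and 7.63 TPM lay below Abcg2 at 9.65 and 15.65 TPM in both SISC libraries, and at 37.9 and 83.3 TPM above Abcg2 at 7.52 and 16.98 TPM in both LISC libraries.

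Abcc2 (ENSMUSG00000025194; chromosome 19, 43782192 to 43840740, plus strand) exports glucuronide and glutathione conjugates across the apical membrane. It stood at 35.7 and 30.0 CPM in SISC against 0.927 and 0.584 CPM in LISC, where it had 10 and 17 counts. SISC exceeded LISC by 45.2-fold (log2 −5.50 ± 0.38, edgeR adjusted p = 0.0167), with log2 ratios of −5.27 and −5.68 in the single replicates. The call was kept without each library in turn. On the TPM scale the ratio of group means was 16.1. TPM divide by effective length, an average over transcripts, which the authors deposited for Abcc2 as 3686 and 4663 bases in SISC and 1252 and 1763 bases in LISC. Few LISC reads underlie that average.

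Abcc3, the basolateral exporter of glucuronides and bile salts, stood at 45.1 and 34.1 CPM in SISC against 147 and 114.0 CPM in LISC. Both LISC libraries lay above both SISC libraries. The log2 difference, 1.72 ± 0.31, missed the threshold with edgeR (adjusted p = 0.0790) and passed it with DESeq2 (adjusted p = 0.000351). Abcc4 (ENSMUSG00000032849; chromosome 14, 118482692 to 118706219, minus strand) stood at 6.11 and 5.59 CPM in SISC against 24.5 and 20.8 CPM in LISC. It was 3.87-fold higher in LISC (log2 1.95 ± 0.26, edgeR adjusted p = 0.0413), with log2 ratios of 2.001 and 1.90 in the single replicates. The call of Abcc4 was lost in each of the 4 fits that left out a library (edgeR adjusted p = 0.0501 to 0.139), while its log2 difference stayed at 1.83 to 2.08. Abcc1, an exporter of glutathione conjugates and leukotriene C4, stood at 30.1 and 21.7 CPM in SISC against 50.7 and 39.2 CPM in LISC (log2 0.79 ± 0.29, edgeR adjusted p = 0.338). Abcc3 and Abcc1 were thus higher in value in both LISC libraries without passing edgeR's test. Abcc5, Abcc6 and Abcc10 had log2 differences of −0.26, −1.08 and −0.061, and none was called by edgeR or DESeq2. Abcc8, the sulfonylurea receptor known from hormone-secreting cells, had 16 and 7 counts in SISC and 32 and 69 in LISC (log2 1.996 ± 0.95, edgeR adjusted p = 0.513).

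Of 11 glutathione genes, all tested, 1 was called by edgeR (9.09%, beside 2.2% of all genes) and 2 by DESeq2, each higher in LISC. The gene called by both was Nqo1, a quinone reductase and target of the stress factor Nfe2l2. It stood at 8.08 and 5.53 CPM in SISC against 63.6 and 79.0 CPM in LISC (10.5-fold higher in LISC, edgeR adjusted p = 0.0227). Gclm and Gclc, the subunits of the enzyme that starts glutathione synthesis, had log2 differences of 1.504 ± 0.31 and 1.05 ± 0.28 and missed the threshold with edgeR (adjusted p = 0.103 and 0.179). Gclm passed with DESeq2 (adjusted p = 0.00254). Over the 11 genes the log2 difference had a median of 0.79 and ran from −2.87 to 3.40, with 9 above 0 and 2 below. At an unadjusted edgeR p below 0.05 there were 4 higher in LISC and 1 higher in SISC. Of 10 genes listed for bile salt uptake and export, 7 were tested and 2 were called (28.6%, beside 2.2% of all genes), both higher in SISC. Both are members of the organic anion uptake family, and edgeR called no other gene of the list. The share therefore rests on that family alone. Slco3a1 stood at 52.3 and 70.4 CPM in SISC against 1.67 and 2.10 CPM in LISC (32.1-fold, edgeR adjusted p = 0.0155). Slco2b1 was 4.57-fold higher in SISC (edgeR adjusted p = 0.0492), a call lost in 3 of the 4 fits without a library. Nr0b2, a bile-acid-induced repressor, had 14 and 69 counts in SISC and 0 in both LISC libraries, and passed with DESeq2, which called 3 genes of the list (adjusted p = 0.00321; edgeR adjusted p = 0.115). The list's median was −0.97. The basolateral bile salt exporter genes Slc51a and Slc51b were not called, and Slc51a stood at 4.58 and 2.94 CPM in SISC against 3.61 and 9.49 CPM in LISC (edgeR adjusted p = 0.779).

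Among 19 receptor and factor genes known to control ABC genes, all tested, 1 was called (5.26%, beside 2.2% of all genes). Pparg, a lipid-sensing nuclear receptor, stood at 3.20 and 5.62 CPM in SISC against 58.2 and 83.3 CPM in LISC (15.9-fold higher in LISC, edgeR adjusted p = 0.0267). Nr1i2, the xenobiotic receptor PXR, stood at 39.8 and 52.9 CPM in SISC against 40.6 and 47.2 CPM in LISC (log2 −0.080 ± 0.27, edgeR adjusted p = 0.999). Nr1h2 and Nr1h3, the sterol sensors LXR beta and alpha, had log2 differences of −0.56 ± 0.28 and −0.80 ± 0.28 (edgeR adjusted p = 0.535 and 0.315). Nr1h4, the bile acid receptor FXR, had one of 1.04 ± 0.40 (edgeR adjusted p = 0.369). Nr1i3, the xenobiotic receptor CAR, had the largest absolute difference of the list, at 4.80 and 3.69 CPM in SISC against 0 and 0.309 CPM in LISC, and passed with DESeq2 (adjusted p = 0.000317) but not with edgeR (adjusted p = 0.155). The list's median was −0.043.

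Among mitochondrial and peroxisomal members none was called by edgeR or DESeq2. Abcb10, a mitochondrial transporter tied to haem synthesis, stood at 11.5 and 11.4 CPM in SISC against 22.1 and 24.1 CPM in LISC, and replicates lay close together (log2 1.02 ± 0.24, edgeR adjusted p = 0.135). Abcb6, a porphyrin transporter, stood at 23.1 and 16.8 CPM in SISC against 34.8 and 34.5 CPM in LISC (log2 0.80 ± 0.26, edgeR adjusted p = 0.272). Abcb6 shares 2932 exon bases on its own strand with the transcript gene Gm29253, which was assigned 20.6 to 31.5 counts per library, and its value is uncertain to that extent. Abcb8, a mitochondrial member that was the highest of ABCB in SISC per transcript length, stood at 74.8 and 56.6 CPM in SISC against 55.7 and 44.8 CPM in LISC, all LISC values lower but not called (log2 −0.39 ± 0.29, edgeR adjusted p = 0.779). None of 15 haem and iron-sulfur genes was called by edgeR or DESeq2, and 1 had an unadjusted p below 0.05, with a list median of −0.018. Abcd3, the peroxisomal transporter of branched-chain and bile acid intermediates, stood at 55.7 and 74.9 CPM in SISC against 108 and 138 CPM in LISC, without overlap (log2 0.91 ± 0.31, edgeR adjusted p = 0.294). Abcd4, a lysosomal member of the subfamily that serves vitamin B12 transport, had a log2 difference of −0.74 ± 0.31 (edgeR adjusted p = 0.428). None of 14 peroxisome genes was called by edgeR, while 2 had an unadjusted p below 0.05 and 2 were called by DESeq2, with a list median of 0.26.

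The members without a membrane domain had log2 differences from −0.18 to −0.0048. Abce1, which splits ribosomes for reuse, stood at 104 and 106 CPM in SISC against 96.5 and 113 CPM in LISC (log2 −0.0048 ± 0.27, edgeR adjusted p = 0.9995). Abcf1, which promotes translation initiation, stood at 171 and 151 CPM in SISC against 141 and 142 CPM in LISC (log2 −0.18 ± 0.28, edgeR adjusted p = 0.959). Abcf2 stood at 61.3 and 46.1 CPM in SISC against 53.7 and 42.3 CPM in LISC (log2 −0.16 ± 0.29, edgeR adjusted p = 0.972). Abcf3 stood at 35.6 and 28.3 CPM in SISC against 29.0 and 28.4 CPM in LISC (log2 −0.15 ± 0.24, edgeR adjusted p = 0.962). LISC overlapped SISC for Abce1, Abcf2 and Abcf3, and lay just below it for Abcf1. The sum of the 4 genes was 372 and 332 CPM in SISC against 320 and 326 CPM in LISC. None of the 4, and none of the 12 tested partners in recycling and translation, was called by edgeR or DESeq2 or had an unadjusted edgeR p below 0.05. The 3 ABC proteins that the symbol rule leaves out were likewise not called by edgeR or DESeq2, and had no unadjusted p below 0.05. Cftr, the chloride channel of subfamily C, stood at 183 and 204 CPM in SISC against 207 and 230 CPM in LISC (log2 0.17 ± 0.29, edgeR adjusted p = 0.971), and the peptide transporter genes Tap1 and Tap2 differed by −0.28 ± 0.39 and −0.15 ± 0.24 (edgeR adjusted p = 0.954 and 0.968).

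By subfamily, ABCB made up 22.04% and 18.9% of the family's summed TPM in the SISC libraries and 32.2% and 32.5% in the LISC libraries. Abcg2, Abcg5, Abcg8 and the other ABCG genes together made up 9.34% and 13.0% in SISC and 3.63% and 3.98% in LISC. ABCF took 31.2% and 29.8% in SISC and 21.7% and 22.01% in LISC, and shares within the family are tied to one another, so a lower share need not be a lower level. ABCC took 13.6% and 12.9% in SISC and 18.0% and 15.6% in LISC.

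**Figure D4:**
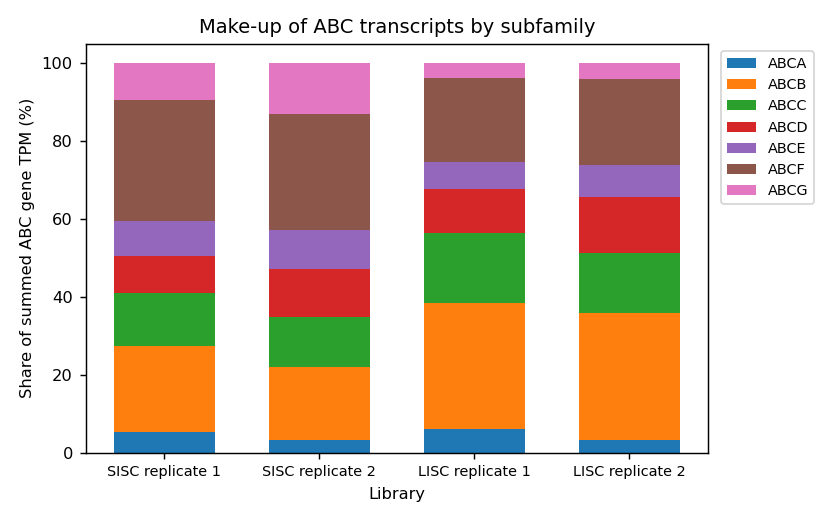
Share (%) of the summed TPM of the 50 ABC genes taken by each subfamily in each of the 4 libraries (stacked bars, one bar per library). ABCB takes 32.2% and 32.5% in LISC against 22.04% and 18.9% in SISC, and ABCG 3.63% and 3.98% against 9.34% and 13.0%.

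Marker lists of other cell types were read in the same way, and the summed levels of the enterocyte, colonocyte, Paneth, goblet and tuft lists did not overlap between the groups. Of all genes tested, 2.2% were called by edgeR, 13.4% had an unadjusted edgeR p below 0.05 and 7.41% were called by DESeq2, in either direction. For 40.3% of single genes the CPM of the groups did not overlap. Of 10 small-intestinal enterocyte markers, 3 were called higher in SISC by edgeR (9 at an unadjusted p below 0.05, 7 by DESeq2), their summed level was 664 and 441 CPM in SISC against 158 and 245 CPM in LISC, and Apoa4 had 0 counts in LISC. Mttp, which was among those called, and Apoa1 and Apob are shared with the list of sterol genes. Of 6 colonocyte markers, 1 was called higher in LISC by edgeR (6 at an unadjusted p below 0.05, 5 by DESeq2), with sums of 26.3 and 26.4 CPM in SISC against 303 and 1316 CPM in LISC, and Car1 and Aqp8 had 0 counts in SISC. Paneth markers (6, 1 called higher in SISC by edgeR, 6 at an unadjusted p below 0.05, 5 by DESeq2) summed to 8572 and 1283 CPM in SISC against 53.7 and 25.0 CPM in LISC. Paneth cells carry CD24, and the SISC sort was gated CD24-negative. Whether Paneth cells were among the sorted cells was not tested. Goblet markers (9, none called by edgeR, 3 at an unadjusted p below 0.05, 4 by DESeq2) summed to 2075 and 455 CPM in SISC against 3405 and 5767 CPM in LISC. Tuft markers (7, 6 tested, none called by edgeR, 5 at an unadjusted p below 0.05, 5 by DESeq2) summed to 22.6 and 4.65 CPM against 84.8 and 146 CPM. Enteroendocrine markers (11, 9 tested, 1 called higher in LISC by edgeR) summed to 183 and 32.0 CPM in SISC against 86.4 and 119 CPM in LISC. Their directions were mixed, with 4 tested markers above 0 in log2 difference and 5 below. At an unadjusted p below 0.05 there was 1 marker in each direction, and likewise with DESeq2. In the goblet, tuft, enteroendocrine and Paneth lists no marker was at 0 in both libraries of a group. The part of these cell types in the differences of Abcb1a, Abcc2, Abcc4, Abcg5 and Abcg8 was not tested. Leukocyte markers (10) summed to 2.50 to 7.25 CPM and stromal and endothelial markers (10) to 2.81 to 7.13 CPM over the 4 libraries, with Adgre1 at 0 everywhere, Lyz2 at 0 in LISC and Col3a1, Dcn and Acta2 at 0 in SISC. The members known from fibroblasts, Abca6, Abca8a, Abca8b and Abca9, had at most 1 count in any library.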

How the data were processed

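Poly(A)-selected, strand-marking libraries were made per the labels' protocols, and the submitters' processing notes list STAR 2.7.2b, RSEM 1.2.31 and GRCm38 (mm10). No source used here gives the annotation, strand setting or trimming. Per the file headers, the authors deposited RSEM expected counts, which divide reads that fit several genes (7.25% of genes had a value over 0.001 from a whole number), and TPM scaled by effective length. The deposited effective lengths and posterior SDs of counts were used for single statements.

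Groups came from the titles. Gene identifiers were matched to GENCODE vM21 (55141 of 55487 had a symbol). Expected counts were rounded and fitted in R 4.3.3 with edgeR 4.0.16 (TMM, filterByExpr with minimum count 10, group only, quasi-likelihood test), with Benjamini-Hochberg adjustment over 14165 genes and a threshold of 0.05. SEs are the log2 fold change over the square root of F. Alternatives were DESeq2 1.42.0, RLE size factors, no filter, removal of rRNA genes, a replicate block and leaving out each library. The script was also run on simulated counts. Their random spread was set by hand and not estimated from these data, so that run does not show how the tests behave here. Promoters came from RefSeq, which held 38 of the 50 members. Depth limits precision to 3 counts, or 0.0937 to 0.278 CPM.

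Values per library are given for members called by edgeR, DESeq2 or the replicate block, or with a mean TPM of at least 10 in a group. Up to 4 called genes are named per companion list. Members Abca2, Abca3, Abcc8 and Abcc10, and companion genes that edgeR did not call (Apoa1, Scarb1, Gclm, Gclc, Slc51a, Slc51b, Nr1i2, Nr1h2, Nr1h3, Nr1h4, Nr1i3, Nr0b2, Cftr, Tap1, Tap2, Kcnj8) fall outside this rule and were picked with values in view. Gata4, Lgr5 and Cd24a belong to no list and also fall outside this rule. The symbol Gcn1, from the translation list, had no match. The members, lists and rules were chosen with earlier results of these data known. Values of 2 members are not reported here, though counts over the family include them.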

Additional observations from a re-analysis of the deposited data

How the results depend on the processing

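The 5 calls among ABC genes were all kept with RLE size factors, without rRNA genes, under DESeq2 and when low-count genes were kept, and no other member was called with the RLE factors or without rRNA genes. DESeq2 called 9 of 31 members (6 higher in LISC) and 1168 of 15772 genes in all (779 and 389 higher in LISC and SISC). No filter on low counts gave 10 of 40 members (7 higher in LISC) and 1407 of 24003 genes (942 and 465). Samples with the same replicate number deviated together (correlation of deviations across genes 0.648, and 0.388 over the 31 members), but the labels do not tie the number to an animal or batch. The replicate block kept the 5 calls and gave 13 members (10 higher in LISC) and 1539 genes (1015 and 524). The 8 members it added were Abca12, Abca7, Abcb10, Abcb6, Abcc1, Abcc3, Abcd3 and Abcg1 (edgeR adjusted p = 0.00260 for Abcc3 to 0.0491 for Abcb6). The fits without a library each tested 30 or 31 members and 14510 to 15352 genes in all. Leaving out each library in turn gave 2 to 4 members, 0 to 1 higher in LISC and 2 to 3 higher in SISC, and 245 to 487 genes in all (166 to 338 and 79 to 149). Without SISC replicate 1, the genes called rose to 487. Without SISC replicate 2, only Abcc2 and Abcg8 of the 5 stayed called. The median log2 difference of the members ran from −0.17 to 0.43 over these fits, at 0.43 without SISC replicate 1. The causes were not tested. None of the 5 changed sign under any of these alternatives. The sign of Abca2, Abcb9, Abcc10, Abce1, Abcf2 or Abcf3, none of them called, turned in 1 or more of the fits without a library. Members with few counts, such as Abca5, Abca12 and Abcc8, are limited by depth.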

Other observations

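Neighbouring members in the genome were read at unlike levels. On chromosome 5, Abcb1a, Abcb1b and Abcb4 follow each other from 8660077 to 8959231 (GRCm38), and only Abcb1a of the 3 had more than 9 counts in a library. On chromosome 17, Abca3 and Abca17 lie head to head on opposite strands, and Abca3 had 665 to 1224 counts per library where Abca17 had 0. On chromosome 11, Abca5, Abca6, Abca8a, Abca8b and Abca9 lie between 109932190 and 110337716, and Abca5 alone passed the filter, with 1 to 15 counts.

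Some members differed more between replicate numbers than between intestines. Abca2, an endolysosomal lipid transporter, stood at 41.3 and 16.4 CPM in SISC replicates 1 and 2, and at 30.4 and 8.94 CPM in LISC replicates 1 and 2, lower in replicate 2 of each group. Abcc10 stood at 27.2 and 14.8 CPM in SISC against 29.7 and 10.8 CPM in LISC, in the same order. The log2 ratio of replicate 2 over replicate 1 was −1.33 and −1.77 for Abca2 and −0.88 and −1.46 for Abcc10 in SISC and LISC. The start of Abcb1a in RefSeq (8567091) lies 93.0 kb upstream of its start in GENCODE vM21 (8660077).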
